A study of Macaca mulatta with 5 samples.

Results

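Rhesus macaque neuroepithelial stem cells (NESC) at passage 36 were compared with NESC at passage 24 by RNA sequencing, to describe which genes differed and which stayed at the same level between the late passages of this culture. The comparison covered the 11134 of 16970 genes in the deposited table that had at least 20 reads in the P24 library or in the P36 library, and it used 2 of the 5 libraries of the series. Both were NESC derived from monkey embryonic stem cells and grown in Neurobasal medium with B27 and N2. The medium held 3 µM CHIR99021, an inhibitor of GSK3 that activates WNT signalling, 5 µM SB431542, an inhibitor of TGF-beta type I receptors, bFGF at 10 ng/ml, and human LIF at 1000 U/ml. Cells were split with 0.025% trypsin at 1:8 to 1:16 every 3 to 4 days. The submitters scored the ability to pass as single cells and re-form neural tubes as strong at both passages, and as moderate at passage 5. The other libraries were NESC at passage 5 in the same medium, radial glial progenitor cells (labelled RPGC in the protocol and written RGPC here) after 7 days without CHIR99021, and neurons after 13 days of differentiation, both from passage 36. They are given only as levels for context. Each passage had 1 library, so no difference has a replicate check and no p-value is given, and whether both passages were sampled from a single line carried forward is not stated.

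Neuroepithelial cells are the first progenitors of the neural tube. They divide symmetrically, hold an apical surface with N-cadherin junctions, and express the transcription factors SOX2 and PAX6 and the intermediate filament proteins nestin and vimentin. As the tube matures they turn into radial glia, which keep many of these genes and add glial ones such as FABP7, and Notch signalling through the HES factors holds both kinds of cell in an undifferentiated state until neurons form. Cultured cells also respond to the supply of amino acids, oxygen and growth factors with well defined groups of genes, and these are described below beside the identity genes.

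Most genes stood at nearly the same level in both libraries. Levels are given in FPKM (fragments scaled by transcript length and by library size, as deposited), and differences as log2(FPKM + 1) in P36 minus that in P24, a scale that understates the difference of genes with low values. Of 11129 genes with reads in both libraries, 6905 (62.0%) lay within 1.25-fold and 9389 (84.4%) within 1.5-fold. At least 2-fold apart were 494 genes (4.44%), of which 296 (2.66%) were higher in P36 and 198 (1.78%) lower. Past 4-fold there were 34 higher and 25 lower. The median difference over all genes was 0.09, the quartiles were −0.14 and 0.33, and from the 5th to the 95th percentile differences ran from −0.60 to 0.82. More genes thus lay above 0 than below, which is the background for the counts of list members above or below 0 given later. That background shifts with scaling, as the median of all genes was −0.01 after quantile normalization. The split of higher against lower depended on scaling. It was 241 against 232 after rescaling by the median of ratios and 230 against 239 after quantile normalization. The read depth was 5620416 in P24 and 7899991 in P36, and 14754 and 14663 genes were above 0. Mitochondrially encoded genes took 0.925% of the reads in P24 and 0.775% in P36. Against NESC at passage 5, in comparisons that share libraries with this one, 7.69% of genes were at least 2-fold apart at P24 and 8.56% at P36.

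**Figure D1:**
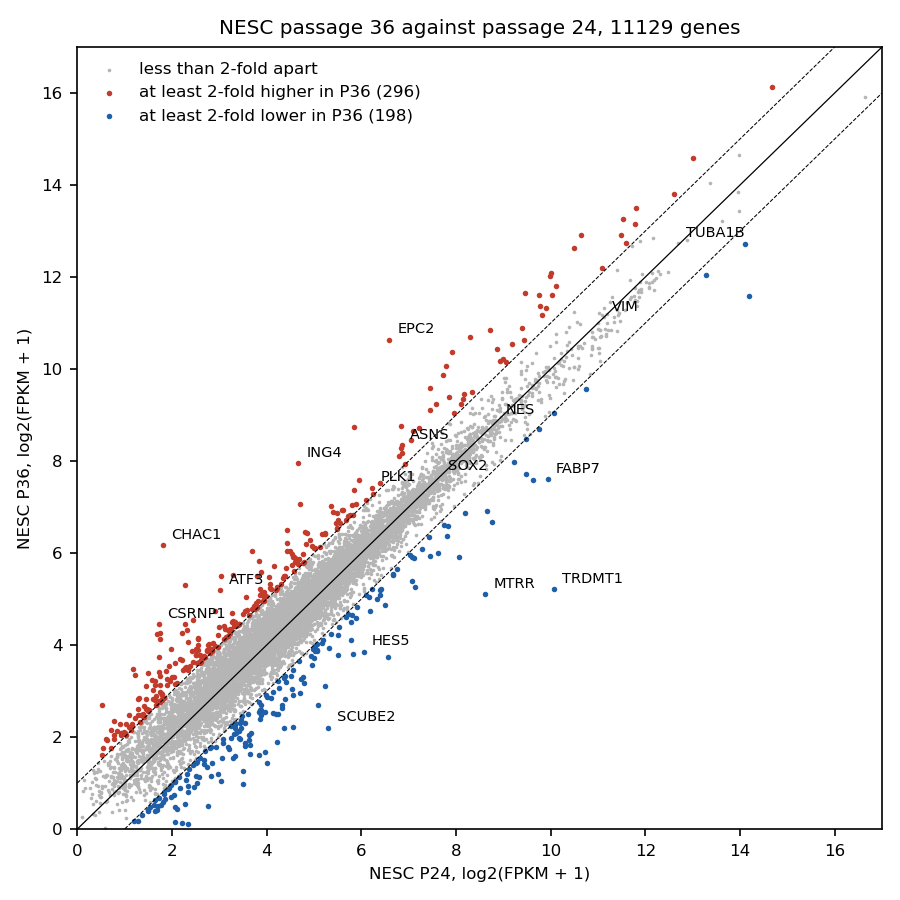
Each point is 1 of 11129 genes, with its log2(FPKM + 1) in NESC P24 on the x axis and in NESC P36 on the y axis. The solid line marks equal levels and the dashed lines a 2-fold difference. The 296 genes at least 2-fold higher in P36 are red and the 198 lower are blue, and VIM, NES, SOX2 and TUBA1B lie on the line while CHAC1 and SCUBE2 lie far from it.

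For single genes the text also gives the reads and their ratio. Reads were recovered from the deposited normalized counts, and the read ratio is that of normalized reads in P36 over P24, or the reverse where P24 was higher, with an exact 95% interval that covers counting error only. That interval excluded equal levels for 5129 genes (46.1%), many of them with small differences, and for 444 of the 494 genes at least 2-fold apart.

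The cells had the markers their label calls for, and several defining genes of NESC differed little. SOX2, the transcription factor that marks neural progenitors, stood at 201 FPKM in both libraries, with 547 reads in P24 and 729 in P36. NES, which encodes the intermediate filament protein nestin, was at 467 and 470 FPKM, and the read ratio was 1.01, with an interval of 0.992 to 1.04. VIM, which encodes vimentin, was at 2237 and 2236 FPKM. LIN28A, which binds RNA and blocks maturation of the let-7 microRNAs, was at 327 and 309 FPKM. Its normalized reads in P24 were 1.28 times those in P36, with an interval of 1.11 to 1.47. CDH2, the N-cadherin of apical junctions, was at 231 and 249 FPKM. MSI1, an RNA-binding protein of neural progenitors, stood at 89.1 and 81.5 FPKM. Over the 16 measured members of a list of neuroepithelial and neural progenitor genes the median difference was 0.01. Of them 8 lay within 1.25-fold, beside 62.0% of all genes, so the list as a whole was no steadier than other genes. None was 2-fold lower, beside 1.78% of all genes. The only member 2-fold higher in FPKM was HMGA2, a chromatin protein of growing progenitors, at 872 and 2650 FPKM, but its reads, 139 and 217, gave a ratio of 1.11 with an interval of 0.895 to 1.39.

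Within the same list some transcription factors were lower in P36 by less than 2-fold. PAX6, which patterns the neural tube and is needed for radial glia, was at 82.2 FPKM with 804 reads in P24 and at 42.4 FPKM with 573 reads in P36, so P24 had 1.97 times the normalized reads, with an interval of 1.77 to 2.20. SOX3, a close relative of SOX2, was at 448 and 244 FPKM, and ZBTB16, a repressor that marks early neural progenitors, at 37.8 and 24.1. In the other direction LMO3, a LIM-domain transcription cofactor, was at 29.2 and 57.8 FPKM. At passage 5 PAX6 stood at 98.8 FPKM, SOX3 at 145 and LMO3 at 25.7, so for PAX6 and LMO3 the level at P24 lay nearer that of P5, and for SOX3 P24 was the highest of the NESC libraries.

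Genes expressed by all cells and the machinery of chromatin, splicing and polarity differed little as well. None of 37 core splicing factors, 25 housekeeping genes, 25 genes of DNA methylation and the polycomb complexes, 20 genes of the BAF and other chromatin remodelling complexes, 17 chaperones and 17 apical polarity and tight junction genes was 2-fold apart. Among all genes 4.44% were, so each list alone is too short for the absence of such members to set it apart. The list medians ran from 0.01 for the chaperones to 0.16 for apical polarity genes, and several turned slightly negative under other scalings. DNMT1, the maintenance DNA methyltransferase, stood at 52.1 and 79.6 FPKM, and EZH2, the methyltransferase of the polycomb complex PRC2, at 83.2 and 117. JARID2, a partner of that complex, was at 18.7 and 13.3 FPKM. The farthest chaperone was HSPA8, the constitutive HSP70 protein, at 1831 FPKM with 24758 reads in P24 and 947 FPKM with 17785 reads in P36, with 1.95 times the normalized reads in P24. Among the most abundant genes within 0.1 on the log2 scale were TUBA1B, an alpha tubulin, at 6607 and 6832 FPKM, and ND4, a mitochondrially encoded subunit of complex I, with 5274 and 7289 reads. The rule for such genes also took RPL38, RPL37A, RPS21, RPS28, ATP5E, NME1 and ZNF320, whose read ratios ran from 0.635 to 0.921 while their FPKM lay within 0.1. Among the growth regulators around LIN28A, HMGA1 was at 943 and 990 FPKM and IGF2BP1 at 130 and 123. IGF2BP3 was lower in P36, at 243 and 167 FPKM.

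Of the gene lists described, the response to amino acid shortage and endoplasmic reticulum stress had the most members higher at P36. In this response the kinases that sense uncharged tRNA or unfolded protein phosphorylate eIF2alpha, translation of ATF4 rises, and ATF4 activates genes for amino acid import, amino acid synthesis and tRNA charging, along with the factors DDIT3 and TRIB3. Of 31 measured members 15 were at least 2-fold higher in P36 and none was 2-fold lower, beside 2.66% and 1.78% of all genes. Their median difference was 0.99, against 0.09 over all genes, and 29 of the 31 were above 0. The summed level of the list was 2256 FPKM in P24 and 4169 in P36.

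CHAC1, an enzyme that degrades glutathione and is a target of ATF4, had the largest difference of the genes whose reads and FPKM lay close together. It lies on chromosome 7 from 19345243 to 19348318 in the coordinates of the deposited table, with the genome build not given in the sources used here. It stood at 2.14 FPKM in P5, 2.51 in P24, 71.3 in P36, 3.96 in RGPC and 18.4 in neurons. P36 was therefore the highest of the 5 libraries, and P24 was close to P5. The reads were 13 in P24 and 505 in P36, and the read ratio was 27.7 with an interval of 16.0 to 52.3, which on the FPKM scale was a log2 difference of 4.36. Other factors of the response followed the same order. DDIT3, the CHOP transcription factor, was at 8.39, 11.9 and 64.7 FPKM in P5, P24 and P36, with a read ratio of 5.34 (interval 4.02 to 7.24), though another gene shares its deposited locus. ATF3, a stress-induced factor of the same family, was at 5.18, 7.12 and 35.5 FPKM with a read ratio of 5.23, and TRIB3, a pseudokinase that restrains ATF4, at 0.577, 2.19 and 17.8 FPKM from 7 reads in P24 and 80 in P36. ATF4 itself, which is controlled mainly at translation, was abundant in all NESC libraries, at 439, 523 and 846 FPKM, with a read ratio of 1.59. ATF5, a related factor, was at 11.2 FPKM in P24 and 8.15 in P36.

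The transporters and enzymes among the targets were higher by smaller factors and from higher levels. SLC7A11, which imports cystine, was at 4.36, 13.4 and 55.6 FPKM in P5, P24 and P36, with a read ratio of 4.12. Its partner chain SLC3A2 was at 116, 116 and 287 FPKM, the leucine transporter SLC7A5 at 25.5, 45.7 and 99.2, and the arginine transporter SLC7A1 at 33.8, 50.2 and 104. All these importers had their highest NESC level at P36. ASNS, the asparagine synthetase, was at 250, 115 and 325 FPKM, with 1301 reads in P24 and 5185 in P36 and a read ratio of 2.84 (interval 2.67 to 3.02). PSAT1, an enzyme of serine synthesis, was at 245, 135 and 399 FPKM, and PHGDH, the first enzyme of that pathway, at 238, 179 and 312. For these biosynthetic enzymes P24 was the lowest of the NESC passages, whereas for CHAC1, DDIT3, ATF3 and the importers P5 was at or below P24. MTHFD2, a mitochondrial folate enzyme, was at 20.6, 43.1 and 99.0 FPKM. SESN2, which restrains mTORC1 when leucine is short, was at 11.3, 20.5 and 73.2 FPKM, and DDIT4, another inhibitor of mTORC1, at 66.8, 43.8 and 90.4.

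Genes of the endoplasmic reticulum chaperone response differed less. HERPUD1, which takes part in degradation of proteins from the endoplasmic reticulum, was at 13.7 and 46.8 FPKM, but the chaperone HSPA5 was at 376 and 426, the co-chaperone DNAJB9 at 18.1 and 19.5, and SDF2L1, another resident protein of that compartment, at 29.5 and 25.7. XBP1, the factor that induces chaperones, was at 57.7 and 78.1 FPKM. Among 9 measured aminoacyl-tRNA synthetases only YARS, for tyrosine, was 2-fold higher, at 83.6 and 184 FPKM, beside 2.66% of all genes. The median of the 9 was 0.32, and HARS, for histidine, was at 84.4 and 85.5.

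**Figure D2:**
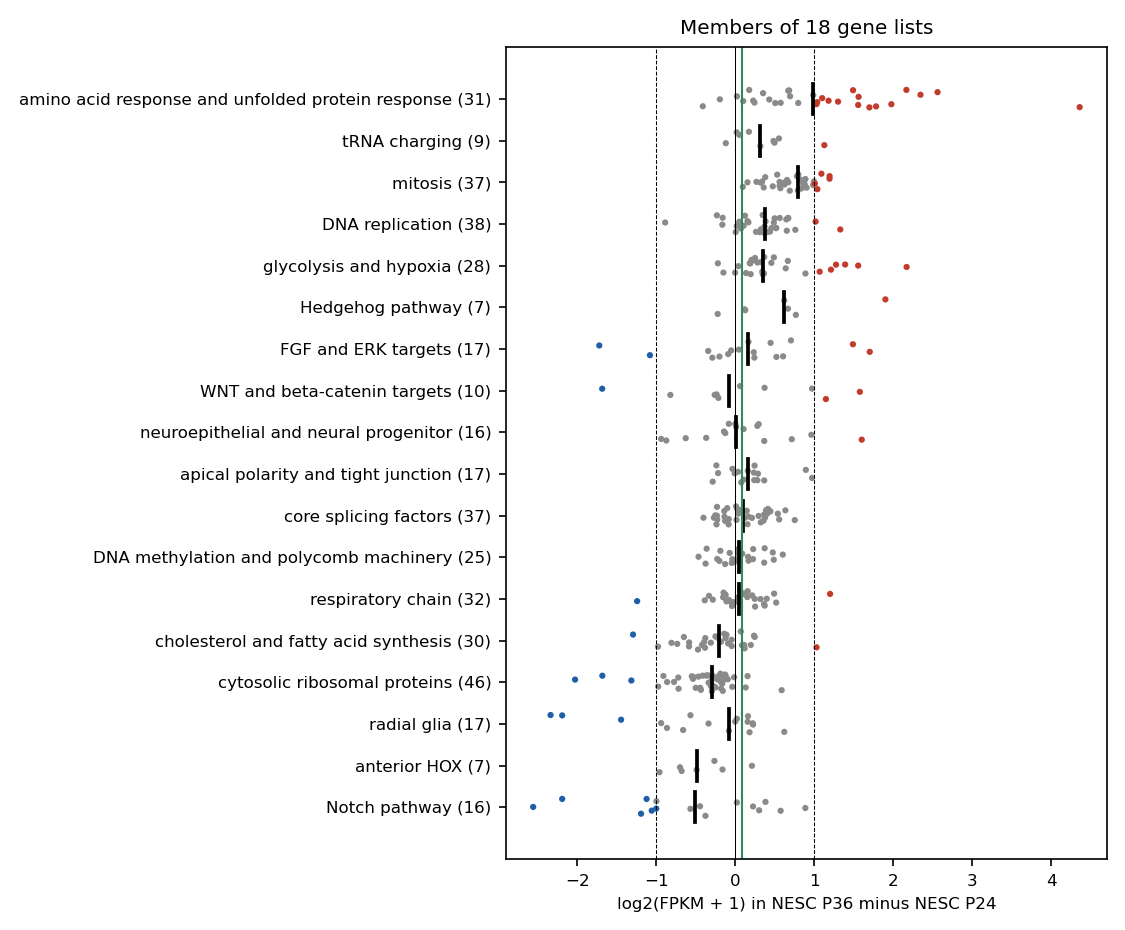
Each point is a gene of the list named on the y axis, with the number of measured members in brackets, and the x axis is log2(FPKM + 1) in NESC P36 minus NESC P24. Black bars are list medians, the green line is the median of all genes, and dashed lines mark 2-fold. Amino acid response genes centre at 0.99 and mitosis genes at 0.79, whereas Notch pathway genes centre at −0.51.

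CSRNP1 and JUND were also among the 12 highest, and GEM, KLF10, BHLHE40 and EGR3 had smaller differences. CSRNP1, a nuclear protein induced by AXIN1, was at 1.94, 2.32 and 20.8 FPKM in P5, P24 and P36, with a read ratio of 8.62 (interval 5.97 to 12.9). JUND, a subunit of the AP-1 factor, was at 20.1, 24.9 and 133 FPKM from 21 reads in P24 and 134 in P36, and its relative JUNB was at 10.3, 12.8 and 44.0 FPKM. KLF10, a zinc-finger factor induced by TGF-beta, was at 20.5 and 89.5 FPKM, GEM, a small GTPase induced by mitogens, at 8.83 and 44.9, and BHLHE40, a repressor linked to the circadian clock and hypoxia, at 2.32 and 12.3. EGR3, an early growth response factor, was at 16.9 and 51.4 FPKM. EGR1, the best known gene of the family, did not share the pattern, with 215 FPKM in P24 and 253 in P36. Among the 17 measured targets of FGF and ERK signalling 2 were higher, namely JUNB and the survival factor IER3, and 2 were lower, beside 2.66% and 1.78% of all genes. The lower ones were ETV4, an ETS factor, at 44.2 and 12.7 FPKM with 416 and 163 reads, and SPRY1, a feedback inhibitor, at 9.95 and 4.18. The feedback genes DUSP6, at 119 and 97.1 FPKM, SPRY2, at 135 and 106, and ETV5, at 10.6 and 10.9, lay closer together.

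Among the 12 highest were also CLSTN2, EMP1 and MYADM. CLSTN2, a calsyntenin of the cadherin superfamily, was at 4.79, 2.35 and 18.3 FPKM in P5, P24 and P36, with 31 and 334 reads in P24 and P36. EMP1, an epithelial membrane protein, was at 0.115, 1.26 and 10.2 FPKM, and the membrane protein MYADM was at 5.14, 7.25 and 44.0. NRG1 and NRP2 were not among these 12 and were chosen after their values were seen. NRG1, the ligand of ERBB receptors, was at 4.41 FPKM in P24 and 22.2 in P36, and NRP2, a receptor for semaphorins and VEGF, at 1.33 and 9.17. NRP2 was higher in neurons, at 26.2, than in any NESC library, while EMP1 was under 0.2 FPKM in RGPC and neurons.

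Every mitosis gene measured was above its P24 level in P36, most by less than 2-fold. All 37 members of the list had a positive difference, and the median was 0.79, against 0.09 over all genes. Of them 5 were at least 2-fold higher and none lower, beside 2.66% and 1.78% of all genes. PLK1, the polo kinase of mitotic entry, was at 116, 73.8 and 170 FPKM in P5, P24 and P36, from 609 reads in P24 and 1966 in P36, with a read ratio of 2.30 (interval 2.10 to 2.52). KIF23, a kinesin of cytokinesis, was at 42.5, 22.3 and 52.2 FPKM, BIRC5, the survivin of the chromosomal passenger complex, at 32.4, 24.5 and 53.3, and CENPA, the centromeric histone, at 26.7, 14.1 and 30.0. MKI67, the proliferation marker, was at 70.1, 45.2 and 84.6 FPKM with a read ratio of 1.83. For these genes P24 was the lowest of the NESC libraries. Over the list the median was −0.50 for P24 minus P5 and 0.16 for P36 minus P5, in values that share libraries with each other. The members nearest to equal were MAD2L1, a spindle checkpoint protein, at 273 and 292 FPKM, and SMC4, a condensin subunit, at 67.0 and 74.7. In bulk RNA a larger share of cells in division and more RNA per dividing cell cannot be told apart.

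Replication genes differed less than mitosis genes. Of 38, 34 were above 0, with a median of 0.37 against 0.09 over all genes. At least 2-fold higher were 2, a share not far from the 2.66% of all genes. These were PRIM1, the primase catalytic subunit, at 47.9 and 122 FPKM, and POLA2, a subunit of its polymerase alpha partner, at 33.8 and 69.4. MCM6, a subunit of the replicative helicase, was at 145 and 151 FPKM, TYMS, the thymidylate synthase, at 382 and 387, and CCNE2, a cyclin of the G1 to S transition, at 34.8 and 18.3. The regulators of G1 were divided. CCND1, a D-type cyclin and a target of WNT and ERK signalling, was at 361 FPKM in P24 and 204 in P36, and CDK6, its kinase partner, at 31.4 and 13.6 with 2.39 times the normalized reads in P24. CDK4 was at 320 and 343, CCND2 at 31.7 and 31.6, and the inhibitor CDKN1A at 203 and 194 FPKM. The inhibitors CDKN2C, at 2.74 and 7.72 FPKM, and CDKN1B, at 30.6 and 55.1, were higher in P36. Of 21 measured targets of p53 only SESN2, which the amino acid list also holds, was 2-fold apart, beside 4.44% of all genes. CCNG1, among the most abundant of them, was at 330 and 329 FPKM, and the apoptosis gene BAX at 214 and 229.

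Glycolytic and hypoxia-induced genes were partly higher at P36, from a P24 level well under that of P5. Of 28 measured, 6 were at least 2-fold higher in P36 and none lower, beside 2.66% and 1.78% of all genes, and the median was 0.35. LDHA, the lactate dehydrogenase A subunit, was at 784, 249 and 523 FPKM in P5, P24 and P36, with 2211 and 6446 reads in the late libraries and a read ratio of 2.08. BNIP3, a mitophagy receptor induced by hypoxia, was at 529, 43.8 and 116 FPKM, PFKFB4, which makes an activator of glycolysis, at 42.9, 4.72 and 12.9, and ALDOC, an aldolase, at 73.7, 14.4 and 34.8. P36 thus lay between the other passages for LDHA, BNIP3, PFKFB4 and ALDOC. VEGFA, the angiogenic factor that the amino acid list also holds, was at 68.5, 21.6 and 65.5. The largest difference of the list was at TPI1, the triosephosphate isomerase, at 3.86 and 20.9 FPKM, but the row lies on an unplaced scaffold and held 13 and 95 reads. Other members hardly differed, such as HK2, a hexokinase, at 22.5 FPKM in both late libraries and 87.5 at P5, SLC2A3, a glucose transporter, at 59.9 and 61.6 against 358 at P5, and SLC2A1, at 698 and 629. The list's median was −1.15 for P24 minus P5 and −0.57 for P36 minus P5.

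Of the gene lists described, the Notch pathway had the most members lower at P36. In this pathway the ligands of the DLL and JAG families on a cell activate NOTCH receptors on its neighbour, and the HES and HEY repressors are the targets that hold back neuronal genes. Of 16 measured members 6 were at least 2-fold lower in P36 and none was higher, beside 1.78% of all genes that were lower. The median was −0.51. Under other scalings, pseudocounts and filters 4 to 7 members were lower.

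HES5, a main Notch target in neural progenitors, lies on chromosome 1 from 5605792 to 5606489. It stood at 22.8 FPKM in P5, 65.4 in P24, 13.5 in P36, 122 in RGPC and 44.6 in neurons. P36 was the lowest of the 5 and P24 the highest NESC passage. The reads were few, 95 in P24 and 25 in P36, and P24 had 5.33 times the normalized reads, with an interval of 3.40 to 8.65. HEYL, another target, was at 15.0 and 1.71 FPKM from 46 and 7 reads, in a locus that it shares with other genes, and HES4 was at 32.3 and 13.5 FPKM. DTX4, a ubiquitin ligase of the pathway, had many more reads, 2633 in P24 and 1661 in P36, and stood at 101 and 46.0 FPKM, with 2.22 times the normalized reads in P24 (interval 2.09 to 2.37). NRARP, a target that dampens the pathway, was at 73.4 and 36.2 FPKM. The sixth was the ligand JAG2, at 1.90 and 0.391 FPKM from 22 and 5 reads. Receptors and other ligands lay closer. NOTCH1 was at 17.4 and 11.4 FPKM, NOTCH2 at 18.4 and 21.7, NOTCH3 at 21.8 and 22.1, and the ligand JAG1 at 162 and 124. DLL1, a ligand carried by cells entering neurogenesis, was at 18.4 FPKM in P24 and 34.9 in P36.

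A few radial glial genes were much lower at P36, and others differed little or moderately. FABP7, the brain lipid-binding protein of radial glia, lies on chromosome 4 from 141158541 to 141163189. It was at 1505 FPKM in P5, 980 in P24, 193 in P36, 1199 in RGPC and 704 in neurons, so P36 was the lowest of the 5 libraries. It had 4146 reads in P24 and 1125 in P36, and the normalized reads in P24 were 5.17 times those in P36, with an interval of 4.84 to 5.53. TTYH1, a chloride channel family protein of progenitors, was at 164, 223, 81.3, 409 and 210 FPKM in the same order, again lowest in P36. SOX9, a factor of gliogenesis, was at 4.82 and 2.19 FPKM, and SLC1A3, the glial glutamate transporter, at 37.9 and 23.6. By contrast PTPRZ1, a receptor phosphatase of radial glia, was at 171 and 194 FPKM, and GLI3, a Hedgehog effector, at 21.1 and 33.0. Of the 17 measured members 3 were 2-fold lower, namely FABP7, HES5 and TTYH1, and none was higher, beside 1.78% and 2.66% of all genes. The median was −0.08 in FPKM, −0.40 on recovered reads and −0.34 with at least 50 reads required.

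**Figure D3:**
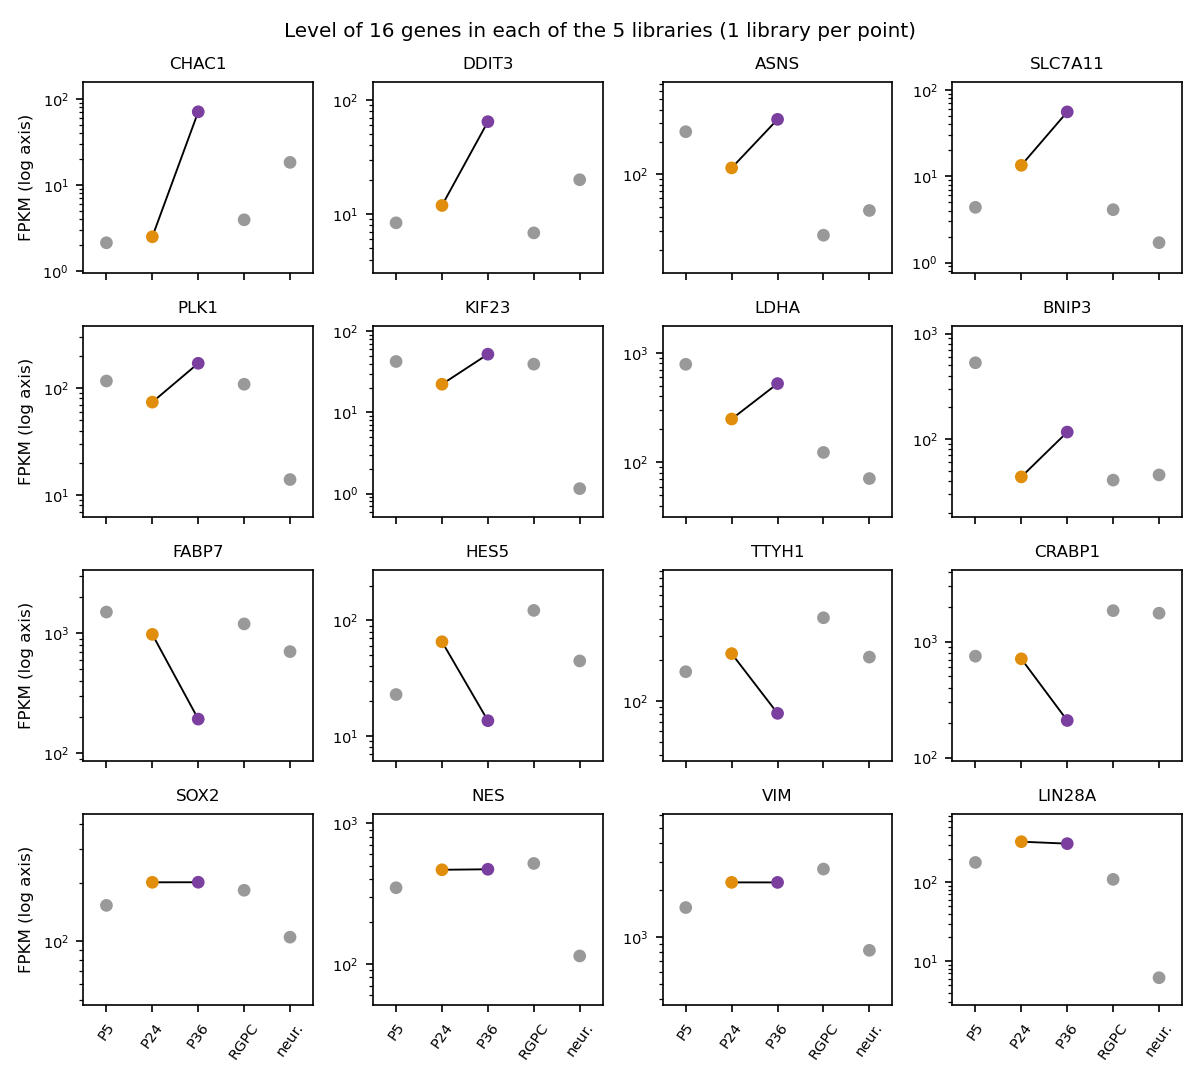
Each panel gives the FPKM of a gene, on a log axis, in the libraries of NESC P5, P24 and P36, RGPC and neurons, with P24 in orange, P36 in purple and a line joining them, and each point is 1 library with no replicate. The top row holds amino acid response genes, the second row mitosis and glycolysis genes, the third row genes lower in P36 and the bottom row genes of NESC identity. FABP7 and HES5 are lowest in P36, and SOX2, NES and VIM run level from P24 to P36.

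The lowest genes whose reads and FPKM lay close together included SCUBE2, DLK1 and WNT7B. SCUBE2, a secreted protein that releases Hedgehog ligands, lies on chromosome 14 from 62864927 to 62942304. It was at 58.8 FPKM in P5, 38.5 in P24, 3.61 in P36, 58.6 in RGPC and 5.15 in neurons. P36 lay at the level of neurons and under all other progenitor libraries. It had 720 reads in P24 and 99 in P36, so P24 had 10.2 times the normalized reads, with an interval of 8.26 to 12.7. WNT7B, a WNT ligand, was at 3.00, 22.7 and 3.67 FPKM in P5, P24 and P36, and DLK1, an imprinted ligand-like protein that lowers Notch signalling, at 8.56, 32.8 and 5.49. ABTB2, a BTB-domain protein, was at 2.25, 13.2 and 2.04. For WNT7B, DLK1 and ABTB2, P24 thus stood apart from the other NESC passages and P36 was near P5. OLFM1, a secreted glycoprotein of neural tissue, was at 61.1, 10.2 and 1.42 FPKM and NNAT, the imprinted neuronatin, at 79.4, 11.5 and 2.08, each lower at each later passage. RHBDL3, a rhomboid-like protein, was at 21.7, 55.7 and 12.9 FPKM, and BCAM, a laminin-binding adhesion molecule, at 8.10, 11.5 and 2.57. PDE4DIP, a centrosome and Golgi protein, was at 10.4 and 0.976 FPKM from 53 and 12 reads in a locus shared with other genes. CRABP1, a binding protein for retinoic acid, was at 710 FPKM with 2111 reads in P24 and 209 FPKM with 802 reads in P36, while its relative CRABP2 was at 809 and 853 FPKM. WFS1, the wolframin of the endoplasmic reticulum, was chosen after its values were seen and was at 195 FPKM in P24 and 63.2 in P36.

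Of 16 measured imprinted genes DLK1 and NNAT were 2-fold lower and none was 2-fold higher, beside 1.78% and 2.66% of all genes. MEST, the next lowest, was at 727 and 414 FPKM, PEG10, a retrotransposon-derived gene, at 203 and 330, NDN at 77.1 and 77.4, and SNRPN at 126 and 120. The median over the imprinted genes was 0.10, close to that of all genes.

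The readouts of the signalling pathways that the medium controls were not uniform. AXIN2, the feedback inhibitor that serves as a readout of beta-catenin, was at 38.9, 27.8 and 85.1 FPKM in P5, P24 and P36, with 416 and 1719 reads in the late libraries and a read ratio of 2.94 (interval 2.64 to 3.29). NKD1, another WNT feedback gene, was at 13.2, 5.71 and 13.9 FPKM. LGR5, the R-spondin receptor that is also a WNT target, differed the other way, at 53.6, 54.2 and 16.2 FPKM, with 3.35 times the normalized reads in P24. LEF1, a nuclear partner of beta-catenin, was at 20.4 and 21.3 FPKM, and MYC at 7.97 and 16.6. Of 10 measured WNT targets 2 were 2-fold higher and 1 was 2-fold lower, beside 2.66% and 1.78% of all genes. The median was −0.08, which turned to 0.06 when at least 50 reads were required. Among 12 measured ligands and receptors WNT7B alone was 2-fold apart, beside 4.44% of all genes. FZD3, at 55.9 and 51.5 FPKM, and LRP6, at 21.7 and 27.1, were close. Hedgehog genes had a median of 0.62 over 7 members. HHIP, a target that binds Hedgehog ligands, was at 0.172, 1.83 and 9.58 FPKM from 35 and 257 reads in the late libraries, PTCH1, the receptor and target, at 51.9 and 83.1, and the coreceptor CDON at 10.8 and 19.1, whereas SMO was at 58.1 and 63.2 and SHH was listed at 0 in both. ID3, a target of BMP signalling, was at 72.0 and 25.7 FPKM, and ID1 at 17.5 and 8.54, while ID2, at 29.9 and 27.1, was close. PIM1, a kinase induced by STAT3 downstream of LIF, was at 19.6 and 44.0 FPKM, SOCS3, its feedback inhibitor, at 15.1 and 25.1, and STAT3 at 27.8 and 31.8. Targets of YAP and SRF were slightly lower, with a median of −0.28 over 12. The tropomyosin TPM1, at 175 and 60.0 FPKM, was the only one of them 2-fold apart, beside 4.44% of all genes. CCN1, at 15.7 and 13.0, was close.

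Some genes of regional identity stood close in both libraries, and others differed. IRX3, an Iroquois factor of the caudal neural tube, was at 80.5 and 74.4 FPKM, IRX5 at 74.4 and 89.6, and GBX2, a gene of the anterior hindbrain, at 46.9 and 44.5. Of 7 measured anterior HOX genes, which mark the hindbrain and upper spinal cord, none was 2-fold apart, beside 4.44% of all genes. However, 6 of the 7 had a lower value in P36 and the median was −0.49, against 0.09 over all genes. HOXB4 was at 43.3 and 21.8 FPKM, HOXD4 at 52.9 and 32.2, and HOXD1, the only one above its P24 value, at 17.7 and 20.6. The 13 trunk HOX genes in the table all had under 20 reads in both late libraries, and their summed level was 361 FPKM in P5, 9.25 in P24 and 5.03 in P36. EN1, of the midbrain and hindbrain boundary, was at 1.72 and 5.10 FPKM, from 5 and 20 reads. It was the only member 2-fold apart among 7 measured genes of forebrain, midbrain and hindbrain position, beside 4.44% of all genes. The lowest of the 7 was IRX1, at 10.6 and 5.61 FPKM from 59 and 42 reads.

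Dorsal genes included both higher and lower members. ZIC1, a zinc-finger factor of the dorsal neural tube and neural plate border, was at 5.18, 2.35 and 16.5 FPKM in P5, P24 and P36 and listed at 0 in RGPC and neurons, from 9 reads in P24 and 86 in P36. ZIC2 was at 23.4 and 58.7 FPKM, in a locus shared with other genes. PAX3, a dorsal paired-box factor, was at 35.6 and 50.4 FPKM, TFAP2B, an AP-2 factor of the neural crest, at 19.7 and 29.0, and PAX7, the closest relative of PAX3, at 16.6 and 8.02. At P5 PAX3 stood at 1.37 FPKM and TFAP2B at 0.0980, so both were far above P5 in both late libraries. GSX1, a factor of intermediate progenitors, was at 2.69 and 9.74 FPKM, from 5 and 24 reads, and GSX2 at 8.88 and 4.14. DBX2, a homeobox factor of intermediate spinal progenitors, was at 2.25 and 0.425 FPKM, from 30 and 8 reads. Of 9 measured dorsoventral genes DBX2 alone was 2-fold lower and GSX1 alone 2-fold higher. Of 10 measured neural crest and plate border genes ZIC1 and ZIC2 were 2-fold higher and NGFR was 2-fold lower. NGFR was at 6.06 and 1.23 FPKM from 82 and 23 reads, in a locus shared with other genes. Among all genes 2.66% were 2-fold higher and 1.78% lower.

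Markers of pluripotent, blood and endothelial cells were at or near 0 in both libraries. Summed over the 8 pluripotency genes in the table the level was 0.602 FPKM in P24 and 1.55 in P36, and none reached 20 reads. The 6 blood and endothelial genes summed to 1.38 and 1.32 FPKM, with CD34, PECAM1 and CDH5 listed at 0 in both. Of 8 mesoderm and endoderm genes MEOX1, a somite factor, was the only one measured, at 0.280 FPKM in P5, 78.1 in P24 and 40.6 in P36, and T, MESP1 and GATA6 were among those listed at 0 in both late libraries. Astrocyte and oligodendrocyte genes summed to 236 and 164 FPKM, of which GJA1 gave 204 and 152, and GFAP was listed at 0.

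Neuronal genes were about as abundant in both libraries, with a sum of 1117 FPKM in P24 and 1074 in P36 over 24 genes and a median difference of −0.03 over the 15 measured. TUBB3, the neuronal tubulin, was at 302 and 249 FPKM, DCX, a microtubule protein of migrating neurons, at 10.9 and 5.93, and MAP2, a dendritic one, at 28.0 and 53.5. STMN2, a stathmin of growing axons, was at 159, 19.9 and 6.10 FPKM in P5, P24 and P36. It was one of 2 members 2-fold lower among the 15 measured, beside 1.78% of all genes. The other was L1CAM, an axonal adhesion molecule, at 3.50 and 0.854. RBFOX3 and ISL1 were listed at 0 in both. Among 8 measured proneural genes 1 was 2-fold lower, beside 1.78% of all genes. It was SSTR2, the somatostatin receptor of early neuronal precursors, at 16.6 and 4.72 FPKM. DLL3, a Notch ligand of such precursors, was at 6.50 and 2.75 FPKM. Fibroblast and mesenchymal genes summed to 126.5 and 147 FPKM. Within them COL1A1 had 83 reads in P24 and 8 in P36, and COL3A1 97 and 2, while TAGLN was at 76.6 and 101 FPKM. The part of these marker levels in the differences above was not tested.

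Matrix and adhesion genes were mixed. Of 27 collagens, laminins, integrins and fibrillins 20 were below their P24 level, with a median of −0.16 against 0.09 over all genes. Of them 3 were 2-fold lower and 2 higher, beside 1.78% and 2.66% of all genes. COL4A1, of basement membranes, was at 71.1 and 31.9 FPKM, COL2A1, of cartilage and the notochord sheath, at 2.46 and 6.62, and COL9A1 at 0.702 and 4.07 from 8 and 67 reads. ITGB1, the common beta chain, was at 197 and 150 FPKM. Of 22 cadherins and other adhesion genes 3 were 2-fold apart, beside 4.44% of all genes. They were PCDH17, a protocadherin, at 8.37 and 19.4 FPKM, L1CAM, given above, and CDH3, under 1.5 FPKM in both.

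Most genes of sterol synthesis were below their P24 level. Of 30 measured genes of cholesterol and fatty acid synthesis 22 were below it and 8 above, with a median of −0.20 against 0.09 over all genes. Of them 1 was 2-fold higher and 1 lower, beside 2.66% and 1.78% of all genes. HMGCS1, an early enzyme of the pathway, was at 1533 and 1020 FPKM, and MSMO1, a later sterol enzyme, at 395 and 225. INSIG1, the sterol-regulated brake and the 2-fold lower member, was at 58.4 and 23.2 FPKM from 48 and 23 reads, on an unplaced scaffold. The fatty acid enzymes FASN, at 97.7 and 116 FPKM, and SCD, at 395 and 415, were close. The 2-fold higher member was SREBF1, a transcription factor of lipid synthesis, at 18.6 and 39.0 FPKM.

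Cytosolic ribosomal protein genes were also below their P24 level in 43 of 46 cases, with a median of −0.29 against 0.09 over all genes. RPLP1, of the ribosomal stalk, was at 790 FPKM with 1167 reads in P24 and 193 FPKM with 381 reads in P36. RPS23 was at 134 and 41.1 FPKM, and RPL10 at 289 and 116. These 3 were the members 2-fold lower, beside 1.78% of all genes. RPL6, of the large subunit, was at 4118 and 3776 FPKM. Values of RPLP1 were 265 FPKM in RGPC and 139 in neurons, and 668 in P5. Of 32 nuclear-encoded genes of the respiratory chain 30 were within 2-fold, beside 95.6% of all genes, with a median of 0.05. The exceptions rested on few reads. COX6C was at 688 and 1580 FPKM from 70 and 61 reads, so its normalized reads were lower in P36, opposite to its FPKM. No direction is given for it. NDUFA1 was at 594 and 250 FPKM from 34 and 5 reads. The 13 mitochondrially encoded genes had a median of −0.20.

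The difference in reads varied with a transcript length worked out from the same values. Genes were divided into 5 equal groups by the length implied by reads over FPKM in P36. A high P36 read count raises both this length and the read ratio, so part of the trend can be built in. The median log2 read ratio was −0.10 in the shortest group and 0.15 in the longest, and on the FPKM scale it was 0.04 and 0.13. Ribosomal protein genes are short, and the part of length in their values was not tested.

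For a small share of genes FPKM and reads did not tell the same story. The log2 difference in FPKM and the log2 read ratio lay more than 1 apart for 138 genes (1.24%), of which 77 were in the shortest of the 5 length groups. That length was itself reads over FPKM in P36, so a high P36 FPKM for its reads makes a gene count as short. The shortest group began at 0.117 bases, which is no real transcript length, so a link of shortness with this gap cannot be read from these groups. In 88 of them the gap remained without the pseudocount. Among the genes at least 2-fold apart in FPKM, 83 were of this kind and 29 had the opposite direction in reads. Of the 38 genes at least 2-fold apart with 1000 FPKM or more in a library, 31 were of this kind. TRDMT1, a tRNA methyltransferase, was the lowest of all named genes in FPKM, at 1072 in P24 and 36.1 in P36, yet it had 143 reads in P24 and 361 in P36. MTRR, the methionine synthase reductase, was at 391.9 and 33.6 FPKM with 427 and 521 reads. EPC2, a chromatin protein, was at 95.2 and 1596 FPKM with 446 and 932 reads, and ING4, a reader of histone methylation, at 24.3 and 247 FPKM with 159 and 190 reads. MZT1, a small protein of the gamma-tubulin complex, was at 1592 and 7696 FPKM with 91 and 186 reads. The row named IL-6 in the table, whose description there is that of a receptor subunit and not of the cytokine, was at 434 and 101 FPKM with 3413 and 3289 reads. The direction of TRDMT1 and of ING4 thus depended on the scale, and no direction is given for either gene. At least 2-fold apart on both scales, in the same direction, were 414 genes, 224 higher and 190 lower in P36, a count chosen after seeing the data.

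**Figure D4:**
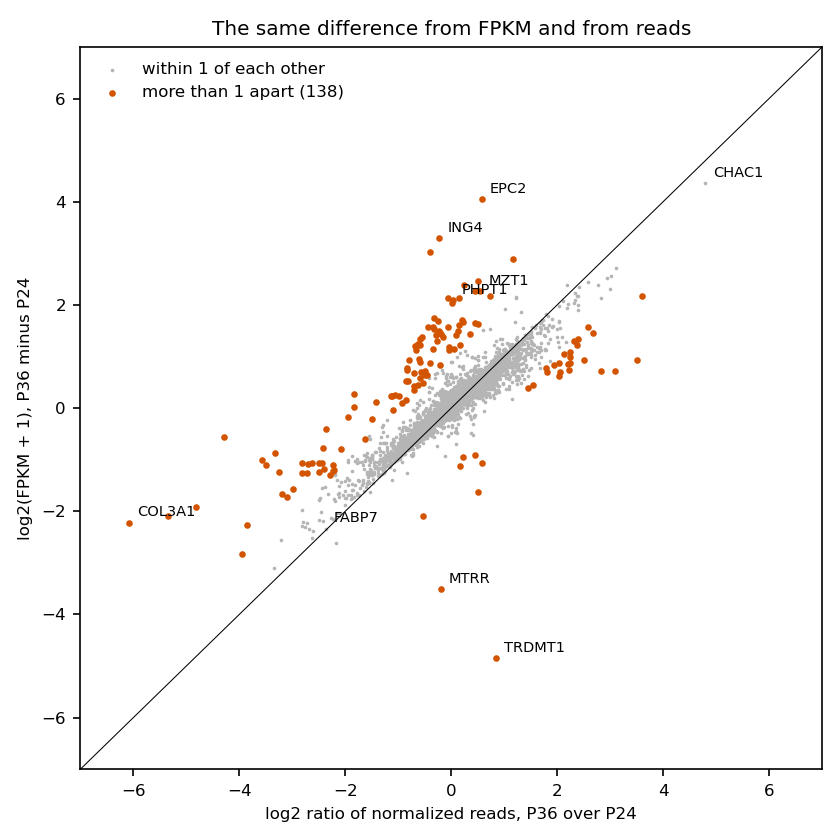
Each point is 1 of 11129 genes, with the log2 ratio of normalized reads in P36 over P24 on the x axis and the difference of log2(FPKM + 1) on the y axis. The 138 genes whose values lie more than 1 apart are orange. TRDMT1 and MTRR fall far below the line of equality and EPC2 and ING4 far above it, while CHAC1 and FABP7 lie near it.

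Of the kept genes, 5 were listed at 0 in a single late library and have no fold. A 0 beside such read numbers in other libraries can be a failed estimate, so these entries are not read as loss of expression. YBX1, a DNA- and RNA-binding protein of growing cells, had 0 reads in P24 and 13772 in P36, where its level was 1358 FPKM. It was at 1494 FPKM in P5 and was listed at 0 in RGPC and neurons. SLC38A1, a glutamine transporter, had 1368 reads in P24 and 0 in P36, and ASCC3, a helicase of DNA repair and ribosome rescue, had 2044 and 0. The others, MAGEA11 and an unnamed gene, had 22 and 21 reads in P36.

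Medians of chromosomes lay close together. Over the 21 chromosomes with at least 100 genes, the median difference ran from 0.02 on chromosome X to 0.13 on chromosome 20. Over 207 windows of 50 neighbouring genes the medians ran from −0.11 to 0.31, and 1 window lay above 0.3. That window lies on chromosome 19 from 6261138 to 9976392. Copy number was not tested.

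**Figure D5:**
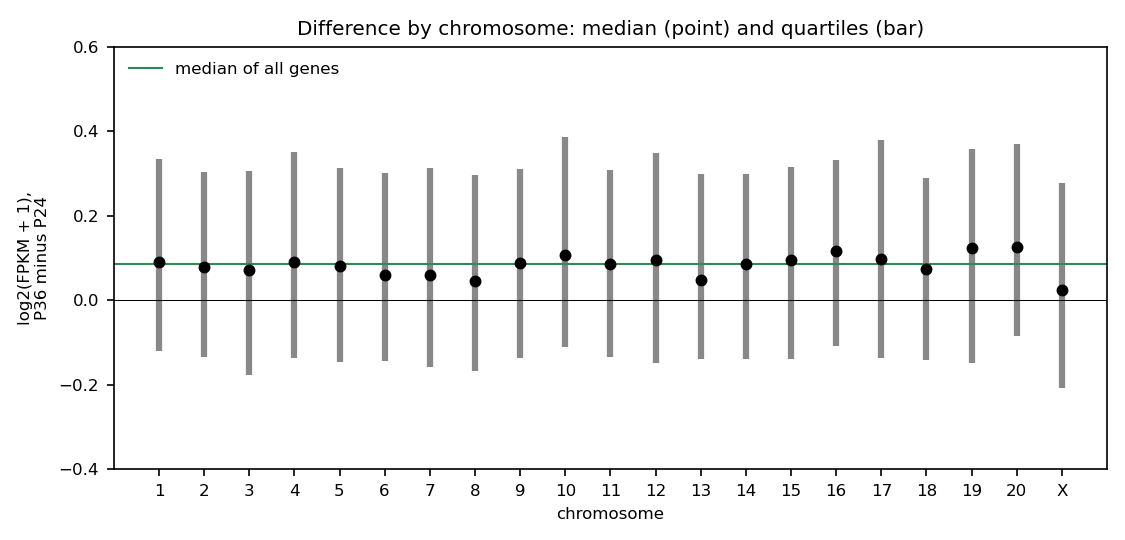
Points are the median of log2(FPKM + 1) in NESC P36 minus NESC P24 over the genes of each of 21 chromosomes, and bars span the quartiles. The green line is the median of all genes. All medians lie between 0.02 and 0.13.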

How the data were processed

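RNA of 5 libraries was fragmented, copied with random primers and sequenced on an Illumina HiSeq, per the labels' protocols, and aligned with TopHat2 2.0.9, per the submitters' processing notes. The program that counted reads is, like the build and annotation, not given in the sources used here. Per gene, the deposited table gives FPKM and a normalized count, per the file headers. The deposited counts were signal values, read numbers times 1 factor per library, and dividing it out left numbers within 0.1 of a whole read for 99.9988% of values. With 1 library per passage no count test could be fitted. Genes with at least 20 reads in P24 or P36 were kept, and differences used log2(FPKM + 1). Read ratios have exact Clopper-Pearson 95% intervals. Symbols came from the table for 10977 genes. RefSeq tables of another assembly, used for names only, gave 2193 more by peptide accession. A list of gene names gave 1298 by Ensembl gene ID, and 2502 had none. Other genes shared the locus of 1530 kept genes.

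The members and the 48 gene lists (1020 genes, 861 in the table) were chosen with earlier results of these data known. Named were the 12 highest, the 12 lowest and 10 alike genes (within 0.1, highest mean FPKM) with a unique symbol, at least 50 reads and 5 FPKM in a library, up to 6 members of each list, and 12 markers. Because some of these had discordant reads, the rule was repeated for genes with both scales within 1. Further members were added with values in view to complete a pathway, as were BHLHE40, EGR3, NRG1, NRP2, KLF10 and WFS1. Alternatives were other pseudocounts, read filters, scalings and fold limits. Scripts ran in Python 3.11.15 with numpy 2.4.6, pandas 2.3.3 and scipy 1.17.1, and were tested on simulated data.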

Additional observations from a re-analysis of the deposited data

How the results depend on the processing

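The count of genes at least 2-fold higher in P36, 296, became 469 with a pseudocount of 0.1, 133 with a pseudocount of 5 and 60 at 3-fold. The count of lower genes, 198, became 86 with a pseudocount of 5, 312 on recovered reads scaled to library size, 309 with no filter on reads, 129 with at least 50 reads in a library, 124 with at least 20 reads in both, and 54 at 3-fold. The 5 mitosis genes at least 2-fold higher became 2 with a pseudocount of 5, 3 after median-of-ratios scaling and 2 after quantile normalization, while the median of that list stayed between 0.67 and 0.80. Amino acid response genes at least 2-fold higher numbered 13 to 16 under the alternatives tried, and glycolytic ones 5 to 7. On recovered reads scaled to library size ING4 had a log2 difference of −0.24 and TRDMT1 of 0.84, each opposite to FPKM. Of 250 values for 50 named genes under 5 settings, 208 moved less than their counting error, 40 moved more and 2 reversed. Of 240 values for the list medians, 120 moved more than their counting error. Some medians changed sign with at least 50 reads in a library, and not only those near 0. That of imprinted genes went from 0.10 to −0.03 and that of WNT targets from −0.08 to 0.06. The median of BMP and TGF-beta targets went from −0.22 to 0.23 and that of proneural factors from −0.39 to 0.07. The scalings moved the median of all genes by at most 0.10. No paired analysis was possible because each passage had 1 library. A search of promoters for response elements was planned and not run, since promoter sequences were not used here. Depth limits genes with few reads, such as HES5, HEYL, TRIB3 and ZIC1, to wide intervals, and differences between cultures of a passage could not be measured.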
